A study of Bos taurus with 12 samples.

Results

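Macrophages of the liver were followed through 10 genes, given by symbol and matched to the Entrez gene IDs of the count files: SPI1, CSF1R, CD163, MARCO, VSIG4, CD68, CD14, CLEC6A, TYROBP and FCER1G. All 10 were found among the 30336 gene IDs of the files, and all 10 passed the filter on low counts, which left 13212 genes. The genes were measured in liver biopsies of 12 Holstein heifer calves at 4 d of age, 6 from dams fed a basal control diet (CON) and 6 from dams fed the same diet with ethyl-cellulose rumen-protected methionine (MET) during the last 28 d before calving. The calves were part of a larger cohort, and both groups were handled and fed alike after birth.

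Kupffer cells are the resident macrophages of the liver and line its sinusoids, where they take up particles, bacteria, dying cells and haemoglobin from portal blood. Their lineage depends on the transcription factor PU.1, encoded by SPI1, and on signals through CSF1R. Scavenger and lectin receptors at the surface do the uptake and recognition, and several of these receptors signal through the small adaptors TYROBP and FCER1G, whose immunoreceptor tyrosine-based activation motifs (ITAM) recruit the kinase SYK.

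Each library held 8277789 to 10397604 reads counted in genes. The CPM of genes are reads scaled to a common library total after TMM normalization. The floor used here, 3 reads, equalled 0.289 to 0.362 CPM when scaled by library totals alone, without TMM factors. The counts of CON calves 1 and 4 differed from each other only slightly beyond counting noise, with a chi-square per gene of 1.33, and the same held for MET calves 1 and 3, with 1.24, whereas the other 64 library pairs lay between 25.1 and 132.9. Each such pair was counted as 1 sample (CON1+4 and MET1+3) in means ± SD, so that n = 5 per diet, although the labels number these libraries as separate calves. Tests are given over the 12 libraries and over the 10 samples with the reads of a pair summed. Log2 fold changes ± SE are those over 12 libraries unless stated, a fit in which both libraries of a pair count. MET5 stood apart from the rest, with a median chi-square per gene of 111 to the other libraries, against 64.9 for MET4 and 34.6 to 48.2 for the others. The 12 libraries shared 1 sequencer lane, and the first index read differed between CON and MET libraries, which means that an index effect and a diet effect cannot be told apart. Values by sample are given in the order CON1+4, CON2, CON3, CON5 and CON6, then MET1+3, MET2, MET4, MET5 and MET6.

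The 10 genes were all present in calf liver, and their levels differed widely. Per kb of exon, MARCO had the highest level, with 289 ± 48.0 CPM per kb over the 10 samples (SD, n = 10), which put it at rank 264 of the tested genes. CD14 followed at 103 ± 36.5 CPM per kb, and the lowest MARCO sample lay above the highest CD14 sample. FCER1G at 45.3 ± 12.9, CD163 at 44.1 ± 8.18 and CD68 at 40.4 ± 6.97 CPM per kb had ranges that met, and the range of FCER1G also met that of CD14. These 3 neighbours could therefore not be ordered.

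CSF1R came next at 20.7 ± 2.79 CPM per kb, below every CD68 sample. The range of CSF1R met that of TYROBP, at 17.4 ± 4.65, and the range of TYROBP met that of SPI1, at 10.4 ± 2.47 CPM per kb. VSIG4 at 4.31 ± 0.797 and CLEC6A at 1.83 ± 0.988 CPM per kb were lowest, and their ranges also met. Among the 10, CSF1R had the smallest relative spread over the samples (coefficient of variation 13.5%) and CLEC6A the largest (53.9%), and CLEC6A had only 10 to 66 reads per library.

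**Figure D1:**
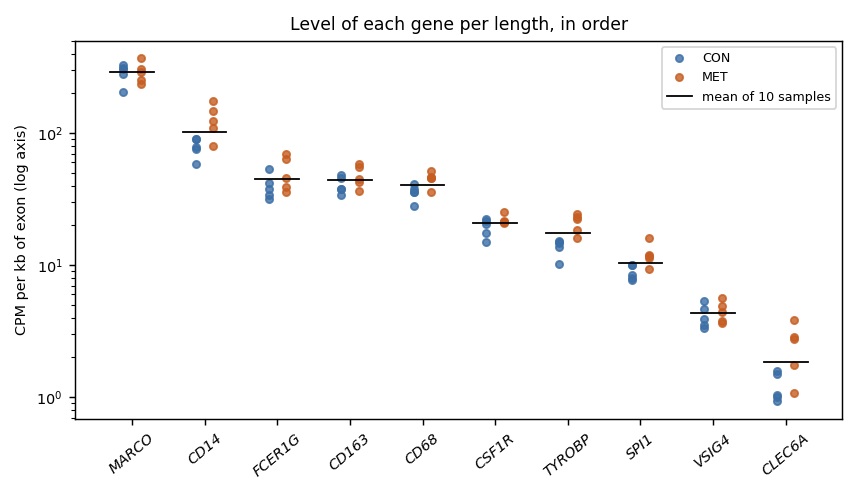
Level of each gene in CPM per kb of exon (log axis), 1 point per sample by maternal diet (blue CON, orange MET), with the mean of the 10 samples as a line. Levels run from 289 CPM per kb for MARCO to 1.83 for CLEC6A, and the points of neighbours such as FCER1G, CD163 and CD68 share a range.

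The comparison of MET with CON asked whether the maternal supply of methionine went with a different level of these genes in the neonatal liver. CD14, CLEC6A, TYROBP and SPI1 were upregulated in MET over the 12 libraries, and none of the 10 was downregulated, at FDR ≤ 0.10 in the quasi-likelihood test of edgeR, adjusted over all genes by Benjamini-Hochberg. The 4 of 10 stood beside 2.09% of all tested genes called higher and 2.32% called lower. All 10 genes had a positive log2 fold change (median 0.41, against -0.0031 over all tested genes), from 0.10 for MARCO to 1.20 for CLEC6A. The same genes are in the list of DEG that the study chose on these libraries, so their calls here are no independent evidence of the direction.

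None of the 4 calls held in edgeR once each library pair was counted as 1 sample. The log2 fold changes over 10 samples were 0.45 ± 0.15 (SE) for SPI1, 0.70 ± 0.21 for CD14, 1.05 ± 0.33 for CLEC6A and 0.59 ± 0.16 for TYROBP. In that fit edgeR's quasi-likelihood test called 0 of the 10 genes and 0 of 13242 genes in all, with 0.156 as the lowest adjusted p, while the unadjusted p was 0.05 or less in 2165 genes. At that unadjusted threshold 5 of the 10 genes were higher over 10 samples, beside 7.83% of all genes, and 6 of the 10 over 12 libraries, beside 10.2%. Limma voom over the 10 samples also called 0 members, whereas DESeq2 called 3 of them higher (CD14, TYROBP and CLEC6A), beside 2.41% of the genes it tested. The samples of the diets did not overlap in 1 of the 10, TYROBP, with every MET sample higher, beside 1.94% of tested genes. The RNA came from whole tissue, so more macrophages, more of each transcript per macrophage and transcripts of other cells cannot be told apart.

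**Figure D2:**
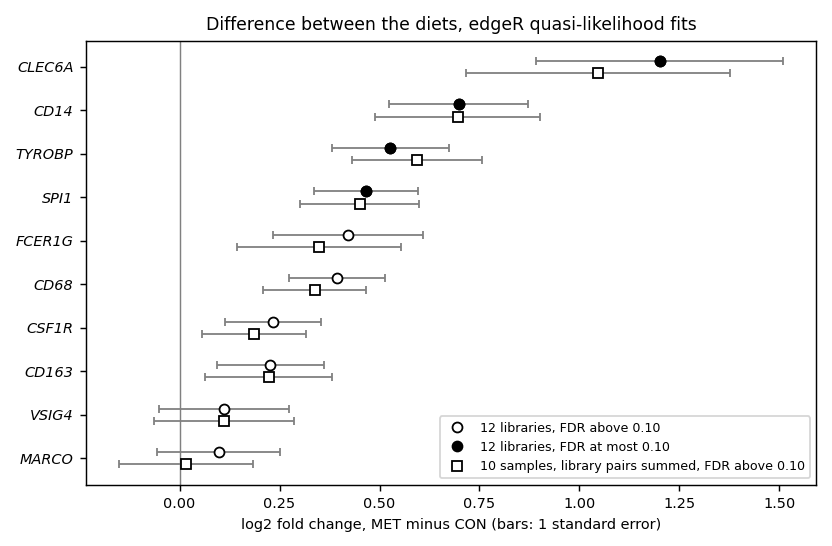
Log2 fold change of each gene, MET minus CON, with 1 standard error, over 12 libraries (circles) and over 10 samples with library pairs summed (squares). Filled symbols have an FDR of at most 0.10: CLEC6A, CD14, TYROBP and SPI1 over 12 libraries and no gene over 10 samples.

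SPI1, on the minus strand at chr15:78402903-78432414 (UMD 3.1.1), encodes the factor that commits progenitors to the myeloid lineage. Its levels were 15.8, 20.5, 16.4, 17.2 and 20.8 CPM in CON and 23.3, 24.0, 32.9, 24.4 and 19.2 CPM in MET. MET4 was highest, and all MET samples but MET6 exceeded the CON samples, while MET6 fell inside the CON range. SPI1 averaged 18.1 ± 2.34 CPM in CON and 24.8 ± 5.02 CPM in MET (SD, n = 5), with a log2 fold change of 0.47 ± 0.13 (SE) over 12 libraries. Its adjusted p in edgeR's quasi-likelihood test was 0.0857 over 12 libraries and 0.197 over 10 samples, and in DESeq2 0.0331 and 0.122.

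CSF1R, on the minus strand at chr7:63379476-63410973, is the receptor for CSF1 and IL34 that keeps tissue macrophages alive. Its levels were 56.9, 86.0, 81.8, 78.5 and 66.6 CPM in CON and 81.5, 96.3, 81.4, 79.1 and 82.3 CPM in MET. CON1+4 was the lowest sample and MET2 the highest, and the other MET samples lay within the CON range. CSF1R averaged 74.0 ± 11.9 CPM in CON and 84.1 ± 6.89 CPM in MET, a log2 fold change of 0.23 ± 0.12 that did not pass the test (edgeR adjusted p = 0.286 over 12 libraries and 0.496 over 10 samples). Without both libraries of CON1+4 it was 0.10 (edgeR adjusted p = 0.685). Of its ligands, CSF1 was at 17.0 ± 3.95 CPM in CON and 15.5 ± 2.89 CPM in MET without passing the test (log2 fold change -0.11, edgeR adjusted p = 0.735), and IL34 was under the filter on low counts.

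The receptors that take up cargo had small differences, and none passed the test. MARCO, on the plus strand at chr2:71099021-71134084, is a collagen-domain scavenger receptor that binds bacteria and particles. Its levels were 307, 458, 492, 418 and 463 CPM in CON and 454, 429, 377, 349 and 553 CPM in MET. Apart from MET6, which was highest, the MET samples fell inside the CON range, and CON1+4 was lowest. MARCO had a log2 fold change of 0.10 ± 0.15 over 12 libraries and of 0.02 ± 0.17 over 10 samples, and it turned to -0.07 when both libraries of CON1+4 were left out.

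VSIG4, on the plus strand at chrX:99894506-99986219, is the complement receptor by which Kupffer cells capture coated particles. VSIG4 levels were 7.34 to 11.8 CPM in CON (median 8.72) and 8.01 to 12.4 CPM in MET (median 9.76), ranges that overlapped almost wholly. Its log2 fold change was 0.11 ± 0.16, and -0.0068 without both libraries of CON1+4. CD163, on the plus strand at chr5:102245720-102282814, takes up haemoglobin bound to haptoglobin. CD163 was at 150, 135, 192, 149 and 181 CPM in CON and at 178, 219, 233, 144 and 169 CPM in MET, with MET2 and MET4 above every CON sample and MET5 near the low end. Its log2 fold change was 0.23 ± 0.13 (edgeR adjusted p = 0.355).

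CD68, on the plus strand at chr19:27921927-27923983, encodes a glycoprotein of macrophage lysosomes. Its levels were 36.0, 49.0, 45.9, 46.5 and 52.7 CPM in CON and 58.9, 66.2, 60.1, 46.6 and 58.9 CPM in MET. As for SPI1, all MET samples but 1 exceeded the CON samples, here with MET5 as the exception. CD68 averaged 46.0 ± 6.24 CPM in CON and 58.1 ± 7.14 CPM in MET, and its log2 fold change of 0.39 ± 0.12 missed the threshold narrowly over 12 libraries (edgeR adjusted p = 0.106, and 0.239 over 10 samples). DESeq2 called CD68 higher over 12 libraries (adjusted p = 0.0438) and not over 10 samples (0.176).

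The pattern recognition receptors had the largest log2 fold changes. CD14, on the minus strand at chr7:53446100-53449114, hands bacterial lipopolysaccharide (LPS) to the receptor complex of TLR4 and LY96. CD14 was at 223, 230, 263, 264 and 171 CPM in CON and at 365, 233, 319, 517 and 430 CPM in MET. The MET samples spread over a wide range, with MET5 highest, and MET2 was the 1 MET sample inside the CON range. CD14 averaged 230 ± 38.1 CPM in CON and 373 ± 108 CPM in MET, a 1.62-fold ratio of means, with a log2 fold change of 0.70 ± 0.17 over 12 libraries. The adjusted p for CD14 was 0.0715 over 12 libraries and 0.181 over 10 samples in edgeR's quasi-likelihood test, and 0.0456 over 10 samples in DESeq2.

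CLEC6A (also Dectin-2) is a C-type lectin that recognizes fungal mannans and signals through FCER1G. It lies on the plus strand at chr5:102101576-102118596, and 127123 bases separate its end from the start of CD163. CLEC6A was at 1.35, 1.51, 2.29, 1.46 and 2.18 CPM in CON and at 5.55, 4.00, 2.53, 4.14 and 1.55 CPM in MET. MET1+3 was highest, and MET6 fell inside the CON range. CLEC6A averaged 1.76 ± 0.441 CPM in CON and 3.55 ± 1.55 CPM in MET, with a log2 fold change of 1.20 ± 0.31 over 12 libraries and of 0.85 without both libraries of MET1+3. Its adjusted p was 0.0760 over 12 libraries and 0.189 over 10 samples in edgeR's quasi-likelihood test, and 0.0859 over 10 samples in DESeq2.

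The adaptors TYROBP and FCER1G did not share a pattern over the samples. TYROBP (also DAP12), on the minus strand at chr18:46779727-46782629, was at 8.61, 8.93, 8.81, 8.03 and 5.91 CPM in CON and at 9.43, 13.5, 10.7, 13.1 and 14.3 CPM in MET. The lowest MET sample, MET1+3, lay just above the highest CON sample, and CON6 was lowest. TYROBP averaged 8.06 ± 1.25 CPM in CON and 12.2 ± 2.05 CPM in MET, with a log2 fold change of 0.53 ± 0.15 over 12 libraries. The adjusted p for TYROBP was 0.0859 over 12 libraries and 0.175 over 10 samples in edgeR's quasi-likelihood test, and 0.0530 over 10 samples in DESeq2.

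FCER1G, on the minus strand at chr3:8305543-8309231, encodes the gamma chain that Fc receptors and several lectins share. It was at 45.1, 40.6, 34.1, 36.8 and 57.4 CPM in CON and at 74.5, 49.1, 68.5, 42.0 and 38.5 CPM in MET. MET1+3 and MET4 were above every CON sample, while MET5 and MET6, which were among the highest in TYROBP, were low in FCER1G. FCER1G averaged 42.8 ± 9.15 CPM in CON and 54.5 ± 16.1 CPM in MET, and its log2 fold change of 0.42 ± 0.19 did not pass the test (edgeR adjusted p = 0.222 over 12 libraries) and was 0.20 without both libraries of MET1+3 (edgeR adjusted p = 0.589). No exon of another gene overlapped an exon of any of the 10 genes, on either strand.

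**Figure D3:**
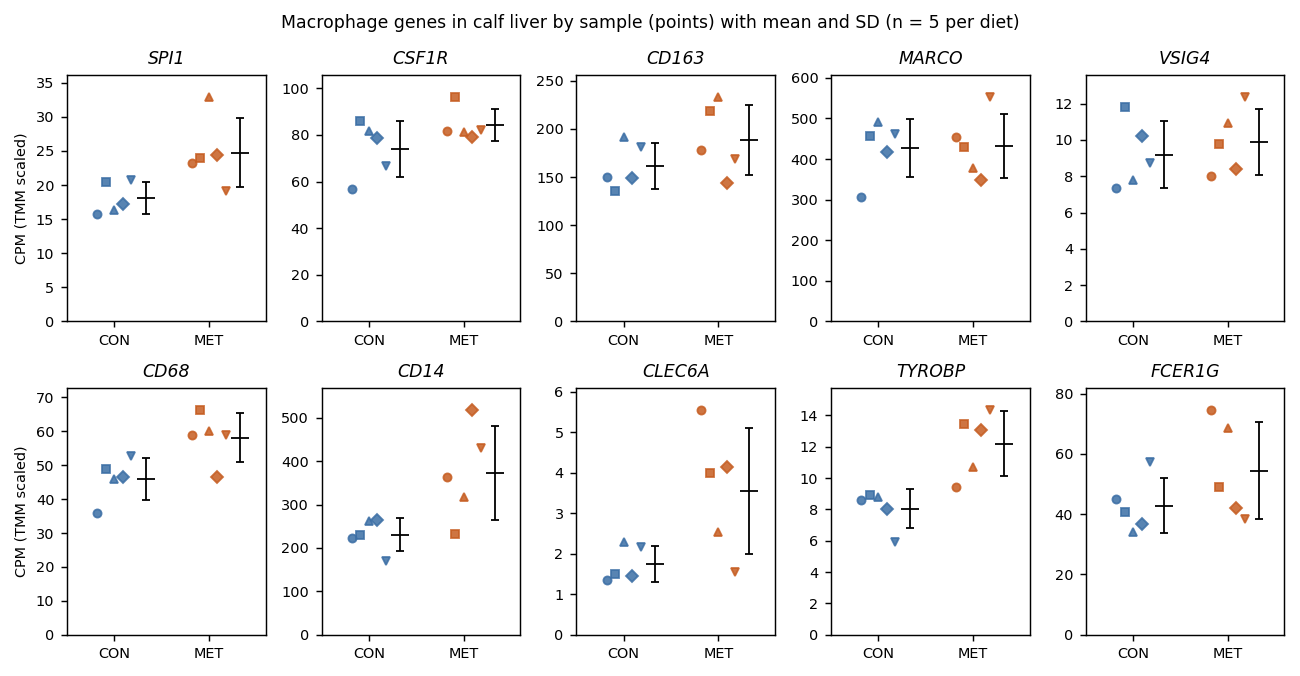
TMM-scaled CPM of each gene by maternal diet, 1 symbol per sample (circle, square, upward triangle, diamond and downward triangle stand for CON1+4, CON2, CON3, CON5 and CON6, and for MET1+3, MET2, MET4, MET5 and MET6), with the mean and SD (n = 5) in black. In TYROBP every MET sample lies above the CON samples, and in SPI1, CD68, CD14 and CLEC6A 4 of 5 do.

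The 4 calls over 12 libraries depended on single libraries. With each of the 12 libraries left out in turn, CD14 stayed at FDR ≤ 0.10 in 6 of the 12 fits, CLEC6A in 5, SPI1 in 3 and TYROBP in 2, and their log2 fold changes stayed positive in all of them, between 0.36 for SPI1 and 1.36 for CLEC6A. Without CON1, without CON4 or without MET1 none of the 10 genes was called. Without CON5, MET2 or MET5 only 1 was called, which was CD14 in the first 2 fits and CD68 in the last. Without MET5, the library that stood apart and the sample highest in CD14, the log2 fold change of CD14 was 0.58 (edgeR adjusted p = 0.105). Without CON3, MET3, MET4 or MET6 the count was 2. The calls over all genes were fewer in the same fits, from 583 with all 12 libraries to 26 without CON1, 35 without CON4, 206 without MET1 and between 216 and 565 without 1 of the other libraries. With library totals in place of TMM factors, CD14 alone was called, and the calls over all genes went from 276 higher and 307 lower to 71 higher and 36 lower.

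Scaled to CSF1R in the same sample, as a description of how the receptors and adaptors stood relative to a general macrophage gene, no ratio separated the diets. The ratio of CD14 to CSF1R was 3.15 ± 0.549 in CON and 4.51 ± 1.53 in MET, with 4 of 5 MET samples above every CON sample. The ratio of TYROBP to CSF1R was 0.111 ± 0.0237 in CON and 0.145 ± 0.0242 in MET, with 2 of 5 above every CON sample. For CD163 the ratio was 2.23 ± 0.488 in CON and 2.24 ± 0.388 in MET, and for MARCO 5.80 ± 0.703 in CON and 5.16 ± 0.991 in MET.

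Most further macrophage genes did not pass the test. Of 39 listed, 36 were in the files and 33 were tested, of which 3 were upregulated over 12 libraries, beside 2.09% of all genes, and none was downregulated. Of the 33, 24 had a positive and 9 a negative log2 fold change (median 0.21). The 3 were AIF1, a calcium-binding protein of activated macrophages, and C1QB and C1QC, chains of the complement starter C1q that macrophages make. AIF1 was at 61.7 ± 6.36 CPM in CON and 86.6 ± 9.55 CPM in MET (log2 fold change 0.46 ± 0.10, edgeR adjusted p = 0.0571), and its diets did not overlap, as for 1.94% of all genes.

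C1QC was at 250 ± 7.52 CPM in CON and 329 ± 28.4 CPM in MET (log2 fold change 0.41 ± 0.09, edgeR adjusted p = 0.0571), again without overlap of the diets. C1QB had a log2 fold change of 0.39 ± 0.11 (edgeR adjusted p = 0.0855), and the third chain, C1QA, one of 0.34 ± 0.13 that did not pass (edgeR adjusted p = 0.166). Over 10 samples edgeR called none of the 33, with 9 higher and 1 lower at an unadjusted p of at most 0.05, beside 7.83% of all genes higher and 8.52% lower. DESeq2 called 4, all higher, beside 2.41% of all genes.

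ITAM signalling was followed in a list of 24 lectins and other receptors, kinases, enzymes and scaffolds, of which 19 were tested. CD209, a C-type lectin that is not known to use either adaptor, and VAV1, an exchange factor for small GTPases, were upregulated over 12 libraries, beside 2.09% of all genes, and none was downregulated, with a median log2 fold change of 0.20. CD209 was at 7.75 ± 1.38 CPM in CON and 16.9 ± 7.59 CPM in MET (log2 fold change 1.01 ± 0.29, edgeR adjusted p = 0.0886). VAV1 had a log2 fold change of 0.57 ± 0.17 (edgeR adjusted p = 0.0953). The kinase SYK had 0.20 ± 0.17 and its downstream scaffold CARD9 0.48 ± 0.17 on the log2 scale, and neither passed (edgeR adjusted p = 0.525 and 0.145). Over 10 samples edgeR called none of the 19, with 5 higher and 1 lower at an unadjusted p of at most 0.05, beside 7.83% of all genes higher and 8.52% lower. DESeq2 called CD209 alone, beside 2.41%.

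The partners of CD14 in the response to LPS were followed in a list of 27 genes. Of 27 listed genes 24 were tested, and edgeR called none higher over 12 libraries, with 2 higher and 3 lower at an unadjusted p of at most 0.05, which stood beside 2.09% of all genes called higher, and 10.2% higher and 10.4% lower at the unadjusted threshold. The 1 gene called lower, beside 2.32% of all genes, was TNFAIP3, an inhibitor of NF-kB signalling (22.7 ± 6.05 CPM in CON, 13.2 ± 2.17 CPM in MET, log2 fold change -0.69 ± 0.18, edgeR adjusted p = 0.0781). The list split evenly, with 12 positive and 12 negative log2 fold changes (median 0.05). The receptor TLR4 was at 4.33 ± 1.31 CPM in CON and 4.04 ± 1.04 CPM in MET (log2 fold change -0.04 ± 0.22), and its co-receptor LY96 at 6.32 ± 0.978 and 6.78 ± 0.667 CPM (0.15 ± 0.13). LBP, the plasma protein that loads LPS onto CD14 and is made by hepatocytes, ranged from 373 to 728 CPM in CON and was at 637, 450, 2433, 2115 and 401 CPM in MET, high in MET4 and MET5 and inside the CON range in the other MET samples, without passing the test (log2 fold change 0.92 ± 0.44, edgeR adjusted p = 0.250). Over 10 samples edgeR called none of the 24, with 2 higher and 1 lower at an unadjusted p of at most 0.05, beside 7.83% of all genes higher and 8.52% lower. DESeq2 called TNFAIP3 alone, beside 2.53% of all genes called lower. IKBKG, the regulatory subunit of the IkB kinase, had every MET sample above every CON sample without passing the test (log2 fold change 0.27, edgeR adjusted p = 0.152 over 12 libraries), as 1.94% of all genes were higher without overlap. AIF1, C1QB, C1QC, CD209, VAV1 and TNFAIP3 are in the study's list of DEG as well, so that these calls too are not independent of it.

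**Figure D4:**
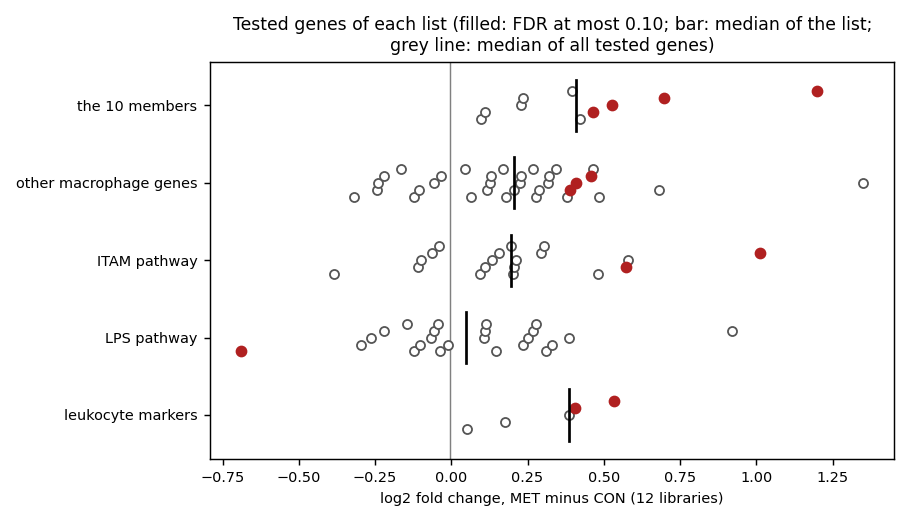
Log2 fold change over 12 libraries (MET minus CON) of the tested genes of each list, with filled points at FDR ≤ 0.10, a bar at the median of each list and a grey line at the median of all tested genes. The 10 members lie to the right of that line with 4 filled, and the LPS pathway genes lie on both sides with 1 filled, TNFAIP3, on the left.

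Markers of other cells that the biopsies could hold were measured beside the 10 genes. Of 5 general leukocyte markers, CORO1A and LAPTM5 were upregulated in MET over 12 libraries (edgeR adjusted p = 0.0582 for both), beside 2.09% of all genes, and both are in the study's list of DEG. Over 10 samples edgeR called none of the 5, with 0.172 as the lowest adjusted p, and DESeq2 called CORO1A and LAPTM5, beside 2.41% of all genes. ITGB2, an integrin chain of leukocytes, had a log2 fold change of 0.39 ± 0.12 (edgeR adjusted p = 0.101). PTPRC, the common leukocyte antigen CD45, was at 34.4 ± 9.11 CPM in CON and 36.7 ± 5.58 CPM in MET (log2 fold change 0.05 ± 0.16, edgeR adjusted p = 0.893). The summed level of the 5 was 191 to 249 CPM in CON and 247 to 303 CPM in MET. LAPTM5 held a large part of this sum, with a mean of 119 CPM in CON and 154 CPM in MET. Of 5 neutrophil markers 4 were in the files and 3 were tested, none was called, and their sum was 7.09 to 26.7 CPM in CON and 9.57 to 72.5 CPM in MET, highest in MET4, the sample that was also highest in SPI1. Without MET4 the log2 fold change of SPI1 was 0.36, with an edgeR adjusted p of 0.125. SPI1 likewise missed the threshold without MET1, MET2, MET3 or MET5 (edgeR adjusted p = 0.125, 0.120, 0.103 and 0.121).

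The sum of 5 hepatocyte markers was 52390 to 89020 CPM in CON and 43100 to 69430 CPM in MET. Most of it was ALB, which encodes albumin, with a mean of 62220 CPM in CON and 39450 CPM in MET. EdgeR called none of the 5 over 12 libraries, with 1 lower at an unadjusted p of at most 0.05, beside 10.4% of all genes. Log2 fold changes over 12 libraries were negative in 4 of the 5 and positive in 1. DESeq2 over 10 samples called ALB lower, beside 2.53% of all genes. Of the markers of further cell types, 6 of 7 for T and NK cells, 2 of 5 for B cells, 3 of 5 for dendritic cells, 5 of 5 for endothelial cells, 5 of 5 for stellate cells, 3 of 4 for bile duct cells and 1 of 5 for erythroid cells were tested. Among those tested edgeR called none over 12 libraries, with 1 T and NK cell marker higher and 1 endothelial marker lower at an unadjusted p of at most 0.05, beside 10.2% of all genes higher and 10.4% lower. DESeq2 over 10 samples also called 0 of these markers. No marker of these lists was at 0 in all samples. The part of these cell types in the differences of the 10 genes was not tested.

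Between calves of one diet, the 10 genes did not vary as one group. Over the 45 pairs of genes, the Pearson r of log2 CPM centred on the diet means (10 samples) had a median of 0.12 and was above 0 in 25 pairs, given as a description, since all pairs share the same libraries. MARCO and CD68 had the highest r, 0.70. TYROBP and FCER1G had the lowest, -0.88, with a Spearman correlation of -0.75, and r was -0.77 without CON6 and MET1+3, the 2 samples farthest from the median of TYROBP. Adjusted over the r of TYROBP with all 13241 other genes, a comparison chosen after seeing the pair, the exact within-diet permutation p of 0.00556 became 0.620, and FCER1G stood at rank 20 from the lowest r.

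**Figure D5:**
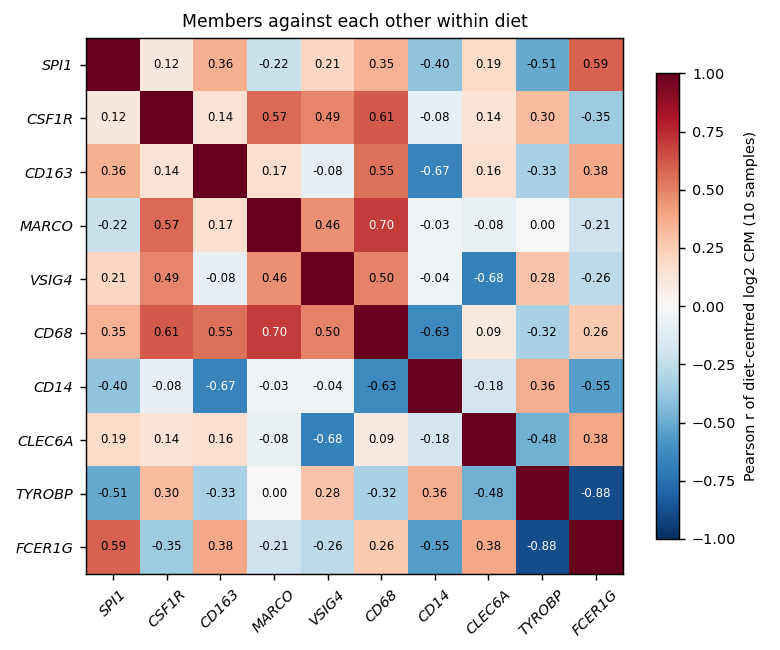
Pearson r between the 10 genes, from log2 CPM centred on the mean of each diet over 10 samples (red positive, blue negative). The highest r, 0.70, is that of MARCO with CD68, and the lowest, -0.88, that of TYROBP with FCER1G.

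CSF1R was also compared with every other gene in the same way, to find genes that varied between calves as it did. No gene passed Benjamini-Hochberg adjustment over the 13241 genes in the exact two-sided permutation test within diet (lowest adjusted p = 0.460), and the unadjusted p was 0.05 or less in 847 genes (6.4%). The 10 highest r were those of PYCARD (r = 0.94, Spearman = 0.83), the adaptor of inflammasomes, and of TPD52L1, GNG2, RDX, ABHD8, CMBL, COPS3, DCTN5, MRPS28 and BMPER (r from 0.87 to 0.92), none of them in the lists used here. PYCARD had an exact permutation p of 0.00188, or 0.577 after adjustment, and r was 0.83 without the 2 samples farthest from the median of CSF1R, CON1+4 and CON2.

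Of the other members, CD68 (r = 0.61, Spearman = 0.31), MARCO (r = 0.57, Spearman = 0.45) and VSIG4 (r = 0.49, Spearman = 0.62) had the highest r with CSF1R. Without CON1+4 and CON2, r was 0.21, 0.13 and 0.04. Leaving out the samples farthest in CSF1R also narrows its range, so the drop does not show that those 2 alone carried the r. TYROBP had r = 0.30 and Spearman = 0.61, with r = 0.62 without those 2 samples, and FCER1G had r = -0.35 and Spearman = -0.32. CD163, CLEC6A, SPI1 and CD14 lay between -0.08 and 0.14 in r. Adjusted over all genes, the exact permutation p of the members with CSF1R was 0.777 or higher.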

How the data were processed

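Poly(A) RNA of 12 liver biopsies was sequenced from one end in stranded libraries. The authors aligned the reads with STAR 2.5.3a to the bovine genome UMD 3.1.1, assigned them to RefSeq genes with featureCounts of Subread 1.5.2, and deposited raw counts per gene without normalization. Symbols were matched through a RefSeq gene table of the later assembly ARS-UCD2.0 (25105 of 30336 IDs), which also named the chromosomes (at least 90.8% of the genes of each sequence). Its coordinates were not used, and ADGRE1, LILRA5, ITGAX and CSF3R had no match.

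Groups and replicate numbers came from the labels. Counts were scaled with TMM factors (edgeR 4.0.16, R 4.3.3), filtered with edgeR's default filter (minimum count 10, minimum total 15) and tested on diet alone with the quasi-likelihood test, as the study did, with FDR ≤ 0.10 after Benjamini-Hochberg adjustment over all genes. The SE follows from the log2 fold change and its F statistic. The steps were tested on simulated data. Library pairs with a chi-square per gene under 5 were counted as 1 sample: reads were summed for tests and CPM averaged for means. The floor of 3 reads covers counting error alone, because PCR copies were not marked by molecular identifiers. Correlations used log2 CPM (prior count 2) centred by diet, over 14400 arrangements within diet (Python 3.11.15, scipy 1.17.1).

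Named genes were the members, genes of the macrophage, ITAM and LPS lists at FDR ≤ 0.10, CSF1, IL34, C1QA, SYK, CARD9, TLR4, LY96, LBP and PTPRC, and the 10 genes most like CSF1R. A further gene of this rule is not reported here. CORO1A, LAPTM5, ITGB2, IKBKG, ALB, TIMD4, CD5L, SLC11A1, MRC1 and IL6 were named after their values were seen. Members and lists were chosen with earlier results of these data known. Alternatives were RLE factors, library totals, no filter, robust dispersion, DESeq2 1.42.0, limma voom 3.58.1, a replicate block and leaving out each library. No sequences were used here.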

Additional observations from a re-analysis of the deposited data

Results flagged for a closer look

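In 25 genes, the 50 groups of 5 samples were searched for a sample far from the others by Dixon's criterion, and 3 groups held one, where chance flags about 1 in 20. CSF1R in MET was highest in MET2, at 96.3 CPM, against 79.1 to 82.3 CPM in the other MET samples. CSF1, the ligand of CSF1R, was lowest in MET4, at 10.4 CPM, against 16.0 to 17.1 CPM in the other MET samples. CARD9, the scaffold downstream of SYK, was lowest in CON6, at 6.95 CPM, against 12.4 to 14.6 CPM in the other CON samples. CON6 was also the CON sample with the lowest TYROBP and CD14 and the highest FCER1G.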

How the results depend on the processing

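Calls at FDR ≤ 0.10 over 12 libraries numbered 4 members, 3 other macrophage genes, 2 genes of the ITAM list, 1 LPS pathway gene and 583 genes in all. CD209, which is not known to use either adaptor, was 1 of the 2 ITAM list genes. These counts changed by at most 1.5 times with RLE factors and robust dispersion. With library totals they were 1, 0, 0, 0 and 107, without the filter on low counts 2, 2, 0, 0 and 238, with DESeq2 5, 6, 4, 1 and 1288, and with limma voom 3, 3, 1, 1 and 556. With library pairs summed they were 0 throughout in edgeR and in limma voom, and 3, 4, 1, 1 and 601 in DESeq2. With each library left out in turn, the ranges were 0 to 4, 0 to 4, 0 to 2, 0 to 1 and 26 to 565, with 26 genes without CON1 and 35 without CON4. Without both libraries of CON1+4 all counts were 0, and without both of MET1+3 they were 1, 3, 1, 0 and 494. DESeq2 and limma voom on summed pairs, and leaving out both libraries of a pair, were chosen after seeing the data.

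With a replicate block, the counts were 0, 0, 0, 0 and 6. The numbers do not pair the calves: the deviations of same-numbered libraries correlated between -0.19 and 0.148.

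Of the log2 fold changes of the members, 8 stayed positive under every alternative, and MARCO (-0.0689) and VSIG4 (-0.0068) turned negative without both libraries of CON1+4. The r of SPI1 with CSF1R turned from 0.12 to -0.35 without the 2 samples farthest in CSF1R. The causes were not tested. Depth limits CLEC6A most, with 10 to 66 reads per library.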

Other observations

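SLC11A1, an iron and manganese transporter of phagosomes, had the largest log2 fold change among the further macrophage genes, 1.35 ± 0.41 over 12 libraries, without passing the test (edgeR adjusted p = 0.106). It was at 4.07 to 9.34 CPM in CON and at 5.93 to 38.1 CPM in MET, with 3 of 5 MET samples above every CON sample, and DESeq2 over 10 samples gave an adjusted p of 0.0439. The Kupffer cell genes TIMD4, a receptor for dying cells (log2 fold change 0.48, edgeR adjusted p = 0.197) and CD5L, a secreted protein (0.17, edgeR adjusted p = 0.647), did not pass either. IL6 had no read in any library. Over 10 samples, MRC1 was the 1 further macrophage gene lower at an unadjusted edgeR p of at most 0.05, beside 8.52% of all genes. MRC1, a surface receptor, was at 60.4 ± 15.2 CPM in CON and 45.25 ± 7.09 CPM in MET (log2 fold change -0.42, edgeR adjusted p = 0.289 over 10 samples). The genes of this section were chosen after their values were seen.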
